A study of Canis lupus familiaris with 15 samples.

Results

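The genes described here encode the enzymes and regulators by which cells make cholesterol and fatty acids, together with proteins that move these lipids into, within and out of cells. A total of 51 genes were chosen by name for these functions, with earlier results of these data known but with no measured value in the rule, and were looked up by symbol in 3 deposited tables of differentially expressed genes. Of the 51 genes, 43 were listed in at least 1 of the tables, which hold 7699 gene symbols together. In D17 there were 28 of them among 4412 rows, in HMPOS 4 among 1189, and in the comparison of HMPOS with POS 37 among 5746. The counts rank as the sizes of the tables do, so a larger count by itself says nothing about these genes. The 8 genes found in none of the tables were HMGCS1, PMVK, IDI1, HSD17B7, EBP, ABCG1, ELOVL1 and FABP5.

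Cholesterol is built from acetyl-CoA through mevalonate, squalene and lanosterol, and most of its later steps take place in the endoplasmic reticulum. The transcription factors SREBP-2 and SREBP-1, encoded by SREBF2 and SREBF1, turn on the enzymes of sterol and fatty acid synthesis when sterols in that membrane run low. SCAP escorts these factors to the Golgi apparatus for processing, and INSIG1 holds them back when sterols are plentiful. Liver X receptors, such as the product of NR1H3, act in the opposite situation and turn on sterol efflux. Dividing tumour cells, osteosarcoma cells included, draw on both syntheses for new membranes.

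RNA was sequenced from 15 libraries in 5 groups of 3. D17, HMPOS and POS are lines of canine osteosarcoma, a bone cancer, and HMPOS was derived from the POS line for its high metastasis. The extravasated groups are D17 and HMPOS sublines grown in culture from cell clusters that had left the blood vessels of zebrafish embryos. The parental groups are D17, HMPOS and POS cells that were not passed through fish. RNA came from cultured cells in every group, so the extravasated values describe sublines after expansion and not cells at the moment of leaving a vessel. The study describes 3 biological replicates of the extravasated clusters and does not say how many cells founded a subline.

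The deposited tables give 1 FPKM value per group (fragments normalised to transcript length and to library size), made from the 3 libraries of that group together. The spread between libraries and the depth of each library are therefore unknown here, no SD or n accompanies a value, and no test between groups could be made from these values. Every row of the 3 tables is marked significant by the authors' own test, so a listed gene is one that passed it, and a gene that is not listed cannot be read as unchanged or as silent. The tables hold 4412 rows for D17, 1189 for HMPOS and 5746 for HMPOS against POS. They name the groups meta and norm. Norm was read as parental because POS, which has parental libraries alone, carries that name. The article, however, describes the extravasation comparisons in the opposite direction for many genes and for the balance of all genes, and which reading is right could not be settled from the files. Every statement of higher or lower after extravasation therefore depends on this reading and would be exchanged by the opposite one. The HMPOS values set beside POS carry the name norm as well, and the opposite reading would make them those of extravasated cells. All log2 ratios below are extravasated over parental cells, or HMPOS over POS, and were computed from the group FPKM. Where a pair of FPKM values is given without group names, the extravasated cells, or HMPOS, come first.

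The first comparison asks how D17 cells that had extravasated differ from their parental line. Of the 28 genes listed for D17, 24 had a higher FPKM in the extravasated cells and 4 a lower one, a share of 85.7% higher against 54.2% of all listed genes. With meta read as parental, the same values would give 4 higher and 24 lower genes, where 45.8% of all listed genes would be higher. Their median log2 ratio was 0.75, against 0.39 over all listed genes. With a fold change above 2, 9 genes (32.1%) were higher, against 18.3% of all listed genes, and 1 gene (3.57%) was lower, against 8.50%. The 9 genes were INSIG1, PPARG, TM7SF2, NPC2, FADS1, ACSL5, LPIN1, CD36 and FABP3, and the lower gene was ELOVL6. Relative to the median of all listed genes, 3 genes (PPARG, NPC2 and CD36) were higher and 1, ELOVL6, lower by a fold change above 2.

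**Figure D1:**
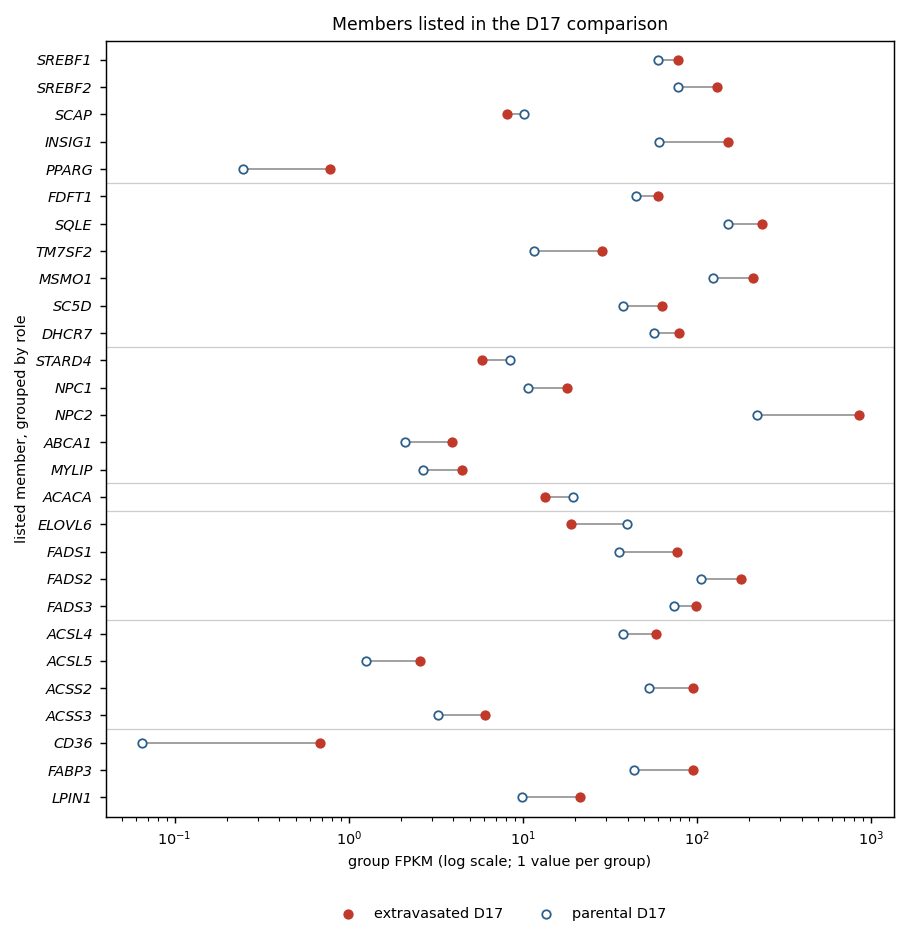
Group FPKM of the 28 listed genes in extravasated (filled) and parental (open) D17 cells, 1 point per group on a log scale, with lines separating the roles given in the text. The filled point lies to the right for 24 genes and to the left for SCAP, STARD4, ACACA and ELOVL6.

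Among the regulators, 4 of the 5 listed for D17 were higher in extravasated cells. SREBF2 was at 129.9 FPKM in extravasated against 78.1 FPKM in parental D17 cells (log2 ratio 0.73). SREBF1 was at 77.8 and 59.9 FPKM (log2 ratio 0.38), which is about the median of all listed genes. INSIG1, itself a target of SREBP, was at 150.1 FPKM in extravasated against 60.7 FPKM in parental cells, a 2.47-fold difference. SCAP went the other way, at 8.07 FPKM in extravasated against 10.2 FPKM in parental cells (log2 ratio -0.34). The escort protein was thus listed lower beside higher messages for both factors that it carries. PPARG, a nuclear receptor of fat storage, was below 1 FPKM in both groups, at 0.780 and 0.247 FPKM.

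Of the 18 enzymes of sterol synthesis, 6 were listed for D17 and all 6 were higher in extravasated cells, with log2 ratios from 0.41 to 1.29 and a median of 0.69. They act from the making of squalene onwards. FDFT1, which makes squalene and so commits the pathway to sterols, was at 59.7 FPKM in extravasated against 45.0 FPKM in parental cells. SQLE, the squalene epoxidase, was the most abundant of the 6 at 235.6 and 150.9 FPKM. The largest difference was that of TM7SF2, a sterol reductase, at 28.5 FPKM in extravasated against 11.7 FPKM in parental cells, 2.44-fold. Of the last steps, SC5D, a sterol desaturase, was at 62.8 and 37.7 FPKM, and DHCR7, which makes cholesterol from its direct precursor, was at 78.7 and 57.0 FPKM.

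MSMO1, a sterol methyl oxidase, was listed at 211.5 FPKM in extravasated against 123.5 FPKM in parental D17 cells. Its row needs care, because the files place it, as ENSCAFG00000011607, on chromosome X from 8144334 to 8145213, a span of 879 bases that is the shortest of all the genes listed here. The RefSeq gene table of another dog assembly places MSMO1 on a different chromosome. Whether the row holds reads of MSMO1 or of a shorter copy elsewhere in the genome was not tested. No enzyme of the mevalonate steps before squalene, from ACAT2 to FDPS, was listed for D17.

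Genes of sterol transport were higher in 4 of the 5 listed cases in extravasated D17 cells. NPC2 and NPC1 hand cholesterol out of the lysosome together, the first as a soluble carrier and the second in the membrane. NPC2 was at 849.3 FPKM in extravasated against 220.3 FPKM in parental cells, a 3.85-fold difference, and its log2 ratio of 1.95 was above that of 94.6% of listed genes. NPC1 differed less, at 17.9 and 10.8 FPKM. ABCA1, which exports cholesterol to lipoproteins, was at 3.92 FPKM in extravasated against 2.12 FPKM in parental cells. MYLIP, a ubiquitin ligase that lowers lipoprotein uptake, was at 4.47 and 2.67 FPKM. Both genes are known targets of liver X receptors, and both were low in level beside NPC2. STARD4, a cytosolic sterol carrier, was lower in extravasated cells, at 5.84 against 8.41 FPKM.

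The genes of fatty acid synthesis had mixed directions in D17. ACACA, the acetyl-CoA carboxylase that starts the pathway, was at 13.4 FPKM in extravasated against 19.4 FPKM in parental cells. ELOVL6, which lengthens saturated fatty acids, showed the largest decrease of the 28 genes, at 18.9 and 39.8 FPKM (log2 ratio -1.08). ACLY, FASN and SCD were not listed for D17. FADS1 and FADS2, the desaturases that make polyunsaturated fatty acids, and their relative FADS3 were all higher in extravasated cells. FADS1 was at 76.8 FPKM in extravasated against 35.6 FPKM in parental cells, FADS2 at 178.7 and 106.0 FPKM, and FADS3 at 98.9 and 74.0 FPKM.

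The 3 desaturase genes are neighbours on canine chromosome 18. In the coordinates of the files, for which the submitters' processing notes name the build CanFam3.1, FADS3 (ENSCAFG00000015963) runs from 54533387 to 54547259, FADS2 (ENSCAFG00000016019) from 54552600 to 54581570 and FADS1 (ENSCAFG00000025083) from 54659484 to 54670815. Log2 ratios along this cluster were 0.42 for FADS3, 0.75 for FADS2 and 1.11 for FADS1. Whether the first base of a span is counted from 0 is not given in the sources used here.

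Acyl-CoA synthetases activate fatty acids or acetate for use in the cell, and the 4 listed for D17 were all higher in extravasated cells (median log2 ratio 0.87). ACSS2, which makes acetyl-CoA from acetate, was at 95.7 FPKM in extravasated against 53.1 FPKM in parental cells. ACSL4, which prefers arachidonic acid, was at 57.9 and 37.7 FPKM. ACSL5, another long-chain synthetase, was at 2.57 and 1.26 FPKM. ACSS3, a mitochondrial enzyme of short-chain acids, was at 6.05 and 3.25 FPKM.

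The 3 listed genes of fatty acid uptake and handling each exceeded a fold change of 2 in extravasated D17 cells. FABP3, an intracellular fatty acid carrier, was at 95.7 FPKM in extravasated against 43.3 FPKM in parental cells. LPIN1, a phosphatidate phosphatase on the route to triglyceride, was at 21.4 and 9.90 FPKM. CD36, a scavenger receptor that takes up fatty acids, had the largest log2 ratio of the 28 genes, 3.40, at 0.684 FPKM in extravasated against 0.0646 FPKM in parental cells. Both CD36 values are below 1 FPKM, and with 1 FPKM added to both groups its log2 ratio was 0.66.

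The second comparison puts the same question to HMPOS. Of the 51 genes, 4 were listed, 1 higher and 3 lower in extravasated HMPOS cells, where 67.0% of all listed genes were higher. The opposite reading of the group names would give 3 higher and 1 lower, and 33.0% of all listed genes higher. None of the 4 exceeded a fold change of 2, against 20.5% of listed genes higher and 4.79% lower by that fold. Relative to the median of all listed genes, which was 0.58, CYP51A1, ELOVL5 and ACSL4 were lower by a fold change above 2. FADS1 was the higher gene, at 160.8 FPKM in extravasated against 101.6 FPKM in parental HMPOS cells (log2 ratio 0.66). CYP51A1, the lanosterol demethylase, was at 142.8 FPKM in extravasated against 197.5 FPKM in parental cells (log2 ratio -0.47), and was the only enzyme of sterol synthesis listed in this comparison. ELOVL5, which lengthens polyunsaturated fatty acids, was at 157.3 and 247.7 FPKM, and ACSL4 was at 36.9 and 49.9 FPKM. No regulator, no sterol transport gene and no gene of fatty acid uptake was listed for HMPOS.

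Only FADS1 and ACSL4 were listed in both extravasation comparisons. FADS1 was higher after extravasation in both lines, with log2 ratios of 1.11 in D17 and 0.66 in HMPOS. The D17 ratio was above that of 84.6% of listed genes. The HMPOS ratio was above that of 57.0%, close to the median of 0.58 over all genes listed there. ACSL4 was higher in extravasated D17 cells (log2 ratio 0.62) and lower in extravasated HMPOS cells (log2 ratio -0.44). Whether the lines differ was not tested, since there is no value per library.

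**Figure D2:**
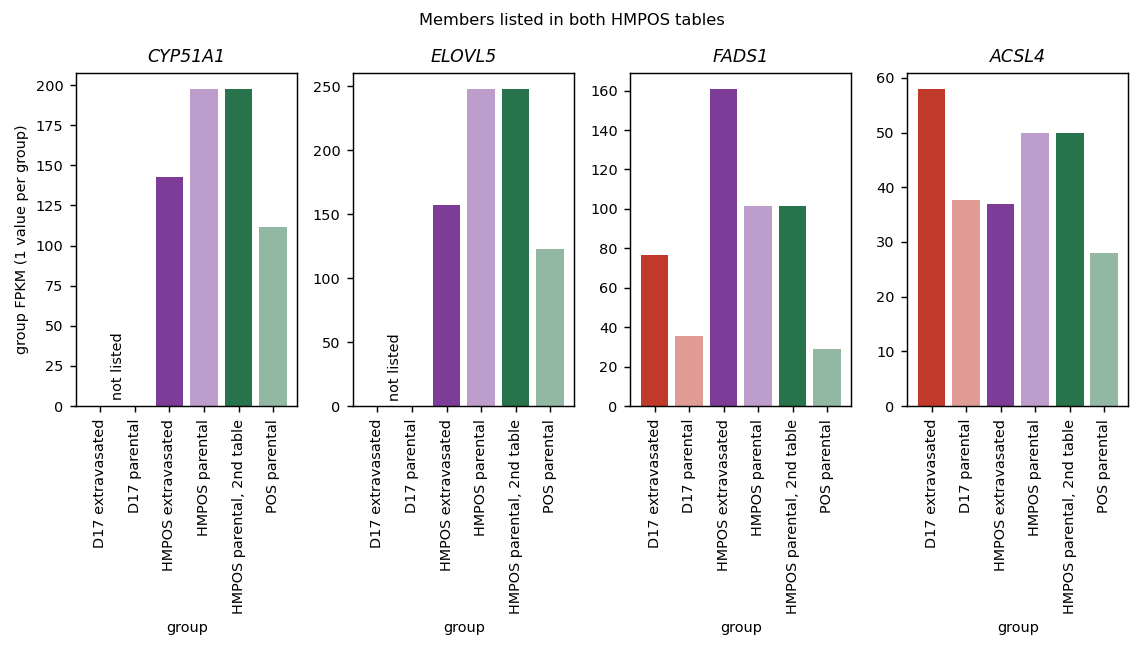
Group FPKM (bars from 0, 1 value per group) of the 4 genes listed in both HMPOS tables, with D17 in red, the HMPOS extravasation table in purple and the HMPOS against POS table in green. Parental HMPOS cells appear in both HMPOS tables at nearly the same level, and extravasated HMPOS cells lie below them for CYP51A1, ELOVL5 and ACSL4 and above them for FADS1.

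The third comparison sets parental HMPOS beside parental POS cells, and 37 of the 51 genes were listed. Of these, 28 (75.7%) had a higher FPKM in HMPOS, against 47.7% of all listed genes, and 9 were higher in POS, against 52.3%. The median log2 ratio was 0.74, while that of all listed genes was -0.31. With a fold change above 2, 8 genes (21.6%) were higher in HMPOS, against 8.49% of listed genes, and 2 genes (5.41%) were lower, against 19.1%. Relative to the median of all listed genes, the counts were 22 higher and 2 lower. The 8 genes were MVD, ACLY, ELOVL5, ELOVL6, FADS1, ACSL3, PPARG and FABP3, and the 2 lower genes were ACSS3 and LPIN1. This comparison uses the same parental HMPOS libraries as the HMPOS extravasation comparison, so the 2 are not independent. The parental HMPOS values of the 4 genes in both tables differed by at most 0.0014 on the log2 scale.

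**Figure D3:**
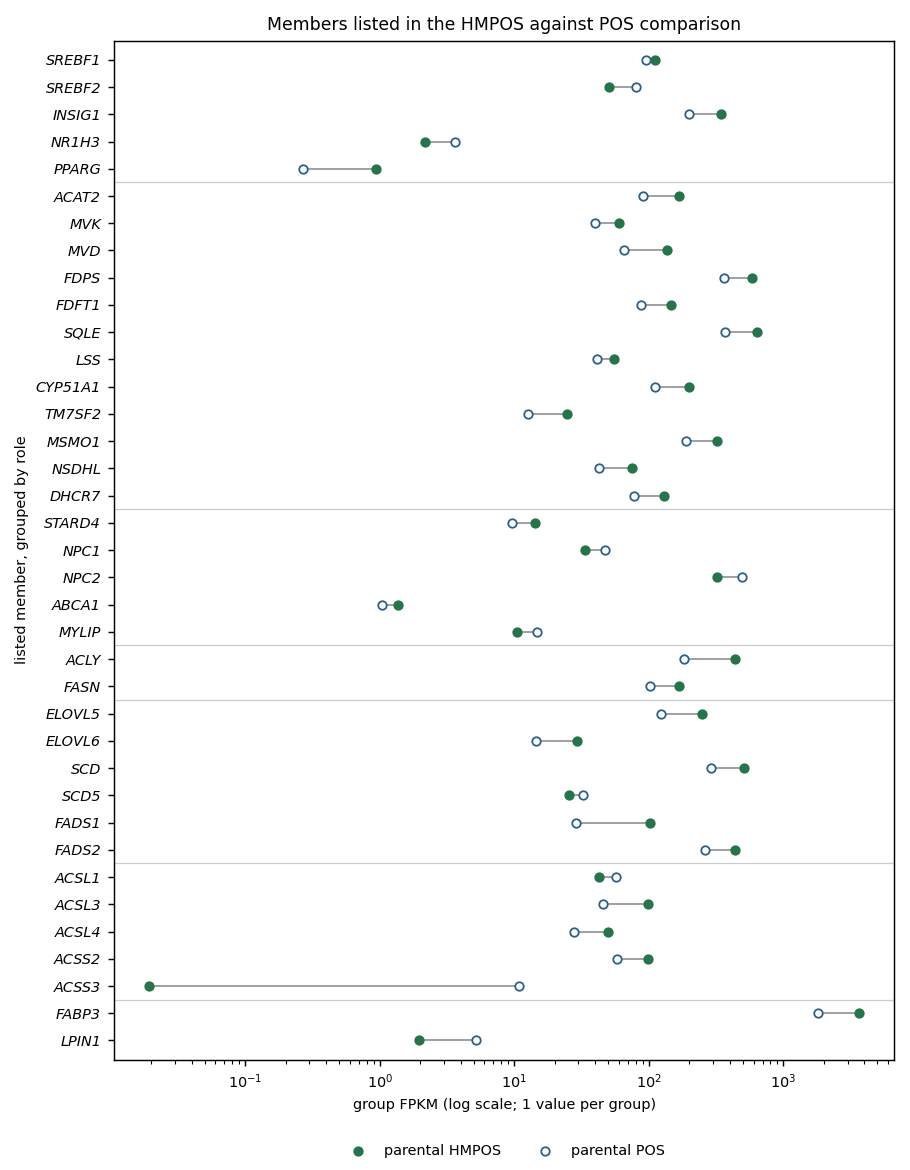
Group FPKM of the 37 listed genes in parental HMPOS (filled) and parental POS (open) cells, 1 point per group on a log scale, with lines separating the roles. All 12 listed enzymes of sterol synthesis, from ACAT2 to DHCR7, have the filled point to the right, and ACSS3 has the widest gap.

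All 12 sterol synthesis enzymes listed in this comparison were higher in HMPOS than in POS. Their log2 ratios lay close together, from 0.42 for LSS to 1.06 for MVD, with a median of 0.77. The first enzymes of the route were included here. ACAT2, which joins acetyl-CoA units, was at 166.7 FPKM in HMPOS against 90.7 FPKM in POS, MVK, the mevalonate kinase, was at 59.7 and 39.8 FPKM, and MVD, which makes isopentenyl diphosphate, was at 136.2 and 65.3 FPKM. FDPS, which makes farnesyl diphosphate, was at 581.2 and 364.9 FPKM. The spans the files give for ACAT2 and MVD are shared with TCP1 and GALNS, so reads of overlapping genes may have been divided between them.

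The squalene and lanosterol steps showed the same direction. SQLE was the most abundant sterol enzyme, at 634.2 FPKM in HMPOS against 369.8 FPKM in POS. FDFT1 was at 145.3 and 87.5 FPKM and LSS, the lanosterol synthase, at 55.4 and 41.4 FPKM. CYP51A1 was at 197.3 and 111.8 FPKM, NSDHL, which acts with it in removing methyl groups from lanosterol, at 75.3 and 42.6 FPKM, and TM7SF2 at 24.6 and 12.7 FPKM. DHCR7 was at 129.2 FPKM in HMPOS against 78.1 FPKM in POS. The row named MSMO1, with the reservation given above, was at 321.1 and 189.5 FPKM.

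**Figure D4:**
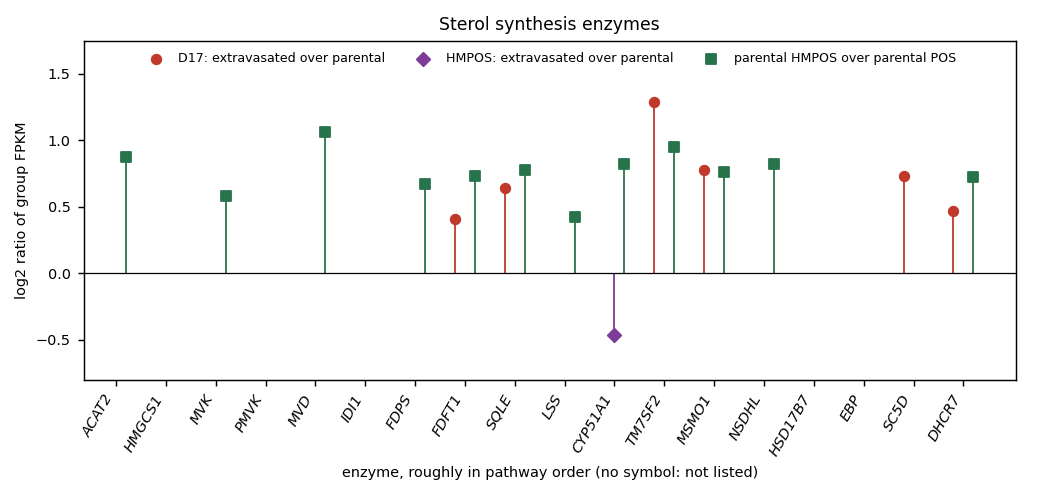
Log2 ratio of group FPKM for the 18 sterol synthesis enzymes, placed roughly in pathway order, with red circles for D17, a purple diamond for HMPOS and green squares for HMPOS against POS, and no symbol where an enzyme was not listed. Every circle and square lies above 0 and the single diamond, CYP51A1, lies below it.

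The regulators did not follow the enzymes as a group in this comparison. SREBF2 was lower in HMPOS, at 50.7 FPKM against 80.0 FPKM in POS (log2 ratio -0.66). SREBF1 was slightly higher, at 111.5 and 94.5 FPKM. INSIG1 was at 346.9 FPKM in HMPOS against 198.2 FPKM in POS, and its log2 ratio of 0.81 lay within the range of the enzymes. NR1H3, a liver X receptor, was lower in HMPOS at 2.16 against 3.63 FPKM, and PPARG was again below 1 FPKM in both groups, at 0.942 and 0.268 FPKM.

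Most listed genes of fatty acid synthesis, elongation and desaturation were higher in HMPOS than in POS. ACLY, which supplies cytosolic acetyl-CoA from citrate, was at 434.1 FPKM in HMPOS against 183.6 FPKM in POS, a 2.36-fold difference. FASN, the fatty acid synthase, was at 166.5 and 101.8 FPKM. SCD, which makes monounsaturated fatty acids, was at 509.9 and 287.5 FPKM, whereas its relative SCD5 was lower in HMPOS at 25.7 against 32.2 FPKM. ELOVL5 was at 247.5 and 122.7 FPKM and ELOVL6 at 29.1 and 14.4 FPKM, both about 2.02-fold. FADS1 had the largest ratio of the 37 genes, at 101.5 FPKM in HMPOS against 28.7 FPKM in POS (log2 ratio 1.82), and FADS2 was at 438.1 and 263.0 FPKM. Of the 11 genes of fatty acid synthesis, elongation and desaturation, 8 were listed and 7 of these were higher in HMPOS.

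The acyl-CoA synthetases were divided. ACSL3 was at 98.1 FPKM in HMPOS against 45.8 FPKM in POS, ACSL4 at 49.9 and 27.9 FPKM, and ACSS2 at 98.5 and 57.6 FPKM. ACSL1, a long-chain synthetase, was lower in HMPOS at 42.4 against 57.4 FPKM. ACSS3 stood apart, at 0.0193 FPKM in HMPOS against 10.8 FPKM in POS. Its log2 ratio of -9.13 had rank 5 from the lowest among all rows with a ratio, although its size rests on a value close to 0 and on an unknown depth.

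Genes of sterol transport and fatty acid handling gave mixed directions. NPC2 was at 323.5 FPKM in HMPOS against 495.9 FPKM in POS, NPC1 at 33.3 and 47.2 FPKM, and MYLIP at 10.4 and 14.8 FPKM, all lower in HMPOS. STARD4 was higher in HMPOS at 14.3 against 9.61 FPKM, and ABCA1 was low in both lines at 1.37 and 1.03 FPKM. FABP3 had the highest level of all 51 genes in any table, at 3646 FPKM in HMPOS against 1812 FPKM in POS, and ranked 6 among all rows of this table by its higher group value. LPIN1 was lower in HMPOS, at 1.97 against 5.22 FPKM.

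**Figure D5:**
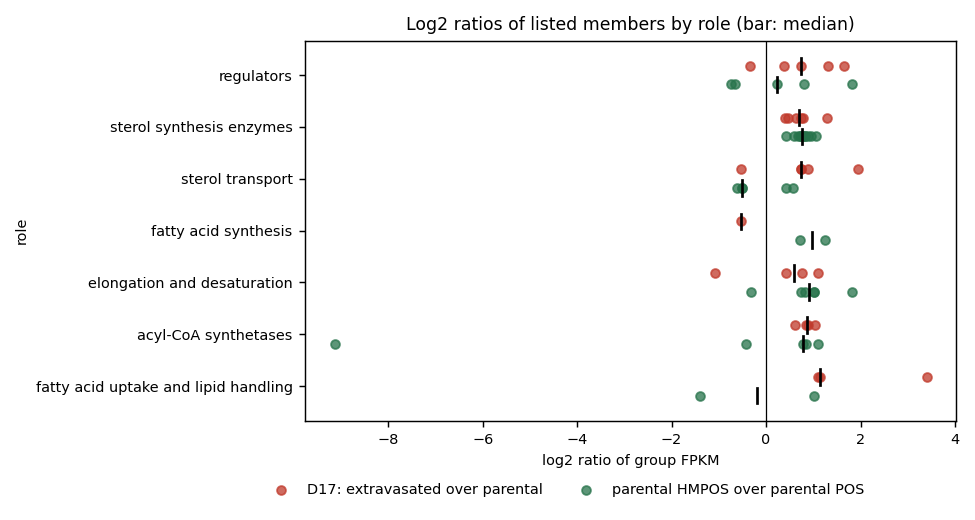
Log2 ratio of each listed gene by role (points), for extravasated over parental D17 cells in red and HMPOS over POS in green, with a short black bar at the median of each role. The sterol synthesis enzymes lie above 0 in both comparisons, and the sterol transport medians are 0.74 in D17 and -0.50 in HMPOS against POS.

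The D17 comparison and that of HMPOS with POS share no library, and 22 of the 51 genes were listed in both. Of these, 14 were higher in extravasated D17 cells and in HMPOS, 6 were higher in extravasated D17 cells and lower in HMPOS, and 2 were lower in extravasated D17 cells and higher in HMPOS. The 14 included FDFT1, SQLE, TM7SF2, MSMO1 and DHCR7, which are the 5 sterol synthesis enzymes listed in both, as well as INSIG1, FADS1, FADS2, ACSS2 and FABP3. The 6 were SREBF2, NPC1, NPC2, MYLIP, ACSS3 and LPIN1. The other two, STARD4 and ELOVL6, showed the reverse. The D17 direction of all 22 depends on the reading of the group names. The same split over all genes listed in both comparisons was not computed. The counts therefore do not show whether these genes shared a direction more often than other genes.

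Other genes of these pathways were looked up for context. For D17, 7 of 23 further sterol genes were listed, 6 of them higher in extravasated cells, and 6 of 20 further fatty acid synthesis genes, 5 of them higher. For HMPOS against POS, 12 of the 23 sterol genes were listed, 8 higher and 4 lower in HMPOS, and 6 of the 20 fatty acid synthesis genes, 2 higher and 4 lower. VLDLR, a lipoprotein receptor, was listed in all 3 comparisons with log2 ratios of 0.91 in D17, 0.67 in HMPOS and 1.45 in HMPOS over POS.

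The largest ratios among the further sterol genes were those of CYP27A1, a sterol hydroxylase, at 17.1 FPKM in extravasated against 3.39 FPKM in parental D17 cells, and of APOE, a lipid-carrying apolipoprotein, at 34.5 and 12.7 FPKM in extravasated and parental HMPOS cells. ELOVL7, a fatty acid elongase, was at 14.3 FPKM in extravasated against 2.84 FPKM in parental D17 cells, and at 1.74 FPKM in HMPOS against 9.89 FPKM in POS. HACD3, which acts in the same elongation cycle, was at 26.3 and 35.4 FPKM in extravasated and parental HMPOS cells, and was the only 1 of the 20 fatty acid synthesis genes listed there.

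Genes of fatty acid oxidation were mixed in D17, where 4 of the 7 listed were higher and 3 lower in extravasated cells. In HMPOS against POS, 5 of 13 were higher and 8 lower in HMPOS, with a median log2 ratio of -0.66, whereas in extravasated HMPOS cells the 2 listed were higher. PDK4, a kinase that favours fat oxidation, was at 2.45 and 1.30 FPKM in extravasated and parental D17 cells and at 0.423 and 3.25 FPKM in HMPOS and POS. DECR1, an auxiliary enzyme of oxidation, was at 4.50 and 2.45 FPKM in extravasated and parental HMPOS cells. Of 24 genes of triglyceride storage and breakdown, 5 were listed for D17 with 4 higher, 2 for HMPOS with 2 higher, and 6 for HMPOS against POS with 4 higher. DGAT2, which makes triglyceride, was at 5.75 and 1.47 FPKM in extravasated and parental D17 cells. CIDEA, a lipid droplet protein, was at 2.14 and 1.06 FPKM in extravasated and parental HMPOS cells, and MGLL, which breaks down monoglyceride, at 2.83 and 0.255 FPKM in HMPOS and POS.

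Markers of the lineage and of other cell types were checked where the tables list them. Of 8 osteoblast markers, 3 were listed for D17, all higher in extravasated cells, 4 for HMPOS, 3 of them higher, and 4 for HMPOS against POS, 1 of them higher. COL1A1, a chain of bone collagen, was listed in all 3 tables. It was at 397.4 FPKM in extravasated against 224.4 FPKM in parental D17 cells, at 101.9 and 76.0 FPKM in extravasated and parental HMPOS cells, and at 75.9 FPKM in HMPOS against 213.2 FPKM in POS. SPP1, a bone matrix protein, was at 25.2 and 3.71 FPKM in extravasated and parental D17 cells, and IBSP, another, at 0.427 and 2.05 FPKM in extravasated and parental HMPOS cells. BGLAP, the osteocalcin gene of mature osteoblasts, was at 27.3 FPKM in HMPOS against 676.3 FPKM in POS, a 24.8-fold difference. The comparison of HMPOS with POS thus holds a large difference in osteoblast markers beside that in the lipid genes.

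Of 4 epithelial markers, CDH1 was listed in all 3 tables and EPCAM for D17 alone. CDH1, the epithelial cadherin, was at 1.47 FPKM in extravasated against 0.0783 FPKM in parental D17 cells, at 3.04 and 1.49 FPKM in extravasated and parental HMPOS cells, and at 1.49 FPKM in HMPOS against 4.30 FPKM in POS. EPCAM was at 1.72 and 0.431 FPKM in extravasated and parental D17 cells. Of 5 endothelial markers, only KDR was listed, at 0.146 FPKM in HMPOS against 1.73 FPKM in POS. None of 5 adipocyte markers and none of 4 leukocyte markers was listed in any table, which does not show that they were silent. The part of the osteoblast, epithelial and endothelial markers in the lipid gene values was not tested. In bulk RNA, more cells with a message and more message per cell cannot be told apart.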

How the data were processed

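RNA-seq of 15 libraries in 5 groups was analysed from 3 tables in which the authors deposited 1 FPKM value per group and gene. The submitters' processing notes name Trimmomatic 0.38, TopHat2, Cufflinks and Cuffdiff with the build CanFam3.1, whereas the article's methods describe STAR, voom and limma, and the columns are those of Cuffdiff. Columns of the authors' own comparison (fold change, test statistic and probabilities) were not used, beyond the mark that each row is significant. Columns of single samples that went unused numbered 0. Log2 ratios were computed from the group values, and the few rows at 0 in 1 group (8, 3 and 28) were counted without a ratio. Each gene symbol was matched exactly, and all 51 symbols are in the RefSeq gene table of assembly UU_Cfam_GSD_1.0. Genes of the 51 are named throughout. Of the further lists, the gene with the largest absolute ratio per table at 1 FPKM or more and any gene in all 3 tables were named. The members and lists were chosen with earlier results of these data known. The results for some sterol genes are not reported here. No test was made, since the tables hold no value per library and the depth is unknown. Counts were checked on simulated tables with known answers. Alternatives were a fold change of 1.5 or none, a minimum of 1 FPKM, pseudocounts of 1 and 0.1 FPKM, centring on the median and, added after the values were seen, the opposite reading of the group names. Python 3.11.15, numpy 2.4.6, pandas 2.3.3 and matplotlib 3.10.9 were used.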

Additional observations from a re-analysis of the deposited data

How the results depend on the processing

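No paired analysis was possible because each group has only a pooled value, and likewise no library could be left out. At any fold change the genes counted higher and lower were 24 and 4 in D17, 1 and 3 in HMPOS and, for HMPOS against POS, 28 and 9, in place of 9 and 1, 0 and 0, and 8 and 2 at a fold change above 2. At a fold change above 1.5 they were 20 and 1, 1 and 1, and 23 and 5. Centred on the median of all listed genes, the counts above a fold change of 2 were 3 higher in D17, 3 lower in HMPOS and, for HMPOS against POS, 22 higher. At any fold change, a setting added after the values were seen, centring gave 23 and 5 in D17 and left the other two as they were. The median log2 ratio of the genes after centring was 0.36 (D17), -1.04 (HMPOS) and 1.04 for HMPOS against POS, and that of the sterol enzymes 0.30 in D17 and 1.08 in HMPOS against POS. A pseudocount of 1 FPKM gave 0.66 in D17 and 0.72 in HMPOS against POS for the genes and 0.68 for the sterol enzymes in D17, a pseudocount of 0.1 FPKM gave 0.74 in D17, and a minimum of 1 FPKM gave 0.74 in D17 and 0.73 in HMPOS against POS. With meta read as parental, an alternative added after the values were seen, the counts were exchanged, to 1 and 9 above a fold change of 2 and 4 and 24 at any fold change in D17, and 3 and 1 at any fold change in HMPOS. The medians then changed sign, to -0.75 for the genes and -0.69 for the sterol enzymes in D17 and 0.45 for the genes in HMPOS. Under the other settings no median changed sign, and only 1 sterol enzyme was listed in HMPOS, so no median is given there. The median used for centring is over genes selected by the authors' test and is no neutral reference. Unknown depth limits most the genes below 1 FPKM, CD36 and PPARG among them.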
